A study of Mus musculus with 90 samples.

Results

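The SLC25 family of mitochondrial solute carriers was followed across 90 RNA-seq libraries from 4 tissues of cold-exposed mice. Members were all rows of the gene count tables whose name was Slc25a followed by a number, which gave 47 of 32697 genes. The rule uses gene names alone. The uncoupling proteins Ucp1, Ucp2 and Ucp3 belong to the same superfamily but carry other symbols and were not members. The 4 genotypes were compared within each tissue. UCP1 KO mice lack uncoupling protein 1, the heat-producing proton carrier of brown fat. The dKO mice lack both UCP1 and the endocrine growth factor FGF21, FGF21 KO mice lack FGF21 alone, and WT mice lack neither. All animals were males, homozygous for their genotype, and shared the same housing. Birth and weaning took place at 30 °C. The cold came in steps, with 12 days at 18 °C for mice that were 10 to 12 weeks old and then 3 weeks at 5 °C. Food was withdrawn 2 to 3 h before collection. No source used here gives the strain or the design of the alleles, and the design text once writes the second gene of the dKO as FGF12. The tissues were brown fat (BAT), inguinal white fat (iWAT), gastrocnemius muscle and hypothalamus. BAT had 6 UCP1 KO, 6 dKO, 5 FGF21 KO and 5 WT libraries. In both iWAT and muscle there were 6, 6, 5 and 6 libraries in the same genotype order, and in hypothalamus 6, 5, 5 and 6. Replicate numbers follow the order in which samples are listed and pair nothing across groups.

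SLC25 proteins lie mostly in the inner mitochondrial membrane and exchange nucleotides, phosphate, carboxylates, acylcarnitines, amino acids, cofactors and metal ions between matrix and cytosol. In brown fat, carnitine exchange brings fatty acids in for oxidation, citrate export feeds cytosolic fatty acid synthesis, and ADP/ATP exchange carries newly made ATP out. Branched-chain amino acids also enter brown fat mitochondria through members of the family.

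Libraries held 18.1 to 69.9 M gene counts (M, 1e6), with a median of 46 M. Levels below are counts per 1e6 counts (CPM) scaled within each tissue by edgeR's composition factors. Levels of different genes are compared only per exon length, as RPKM (CPM per kilobase of exon). A gene is called changed where the adjusted p of edgeR's quasi-likelihood test was under 0.05, with Benjamini-Hochberg adjustment over all genes tested in that tissue. Ucp1 counts in BAT averaged 1139 ± 192 CPM in UCP1 KO and 1354 ± 143 CPM in dKO, against 8524 ± 1354 CPM in WT (SD, n = 6, 6 and 5). In iWAT they averaged 1421 ± 278 CPM in UCP1 KO and 516 ± 406 CPM in WT, which goes against the label, but gene counts do not show which exons those reads came from. Fgf21 averaged 30.2 ± 10.4 CPM in UCP1 KO BAT and 1.01 ± 0.62 CPM in WT BAT, and did not exceed 0.402 CPM in any FGF21 KO or dKO library of BAT. Some libraries stood apart by markers of other tissues: 7 of 22 BAT and 4 of 23 iWAT libraries had a skeletal muscle marker score (mean log2 of CPM plus 0.1 over 14 genes) above 7, 12 of 23 iWAT libraries had a lymphocyte score above 2, and 6 of 22 hypothalamus libraries had a choroid plexus score above 3. No defining marker of the labelled adipocyte list was at 0 in any fat group. Because these are bulk tissue samples, fewer cells of a type and less RNA per cell cannot be told apart.

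Upstream sequence was looked at for 36 of the 47 members, those with an entry in the RefSeq promoter table of GRCm38.p6, using the 250 bases before each listed start and both strands. The E-box CACGTG stood in 7 members and in 6.86% of all 27025 genes. The nuclear receptor motif AAGGTCA stood in 1 member, Slc25a34, and in 4.7% of all genes, and the cAMP response element TGACGTCA stood in Slc25a25 and Slc25a36 and in 1.77% of all genes. The sterol response element TCACNCCAC was found in Slc25a18 alone and in 1.22% of all genes. The amino acid response element TGATGNAA and the NRF1 motif were found in no member, against 3.91% and 0.877% of all genes. None of these motifs contains another. Windows are shown for 4 members, namely Slc25a34 and Slc25a33, which rose in both fat depots, Slc25a1, which fell most in brown fat among members over 100 CPM in WT, and Slc25a25, the member with the widest change in muscle. Capitals mark the motif, each sequence runs 5′ to 3′ on the gene's own strand, and a match is a description of letters only.
Slc25a34, chr4:141623917-141623983, minus strand, nuclear receptor motif (reverse complement) at -119 from the start: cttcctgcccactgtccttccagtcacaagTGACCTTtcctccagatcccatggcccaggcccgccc
Slc25a33, chr4:149774268-149774305, minus strand, E-box at -8: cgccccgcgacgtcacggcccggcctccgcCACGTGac
Slc25a1, chr16:17928423-17928469, minus strand, E-box at -239: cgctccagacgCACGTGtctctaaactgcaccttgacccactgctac
Slc25a25, chr2:32424179-32424246, minus strand, cAMP response element at -150 from one of its listed starts: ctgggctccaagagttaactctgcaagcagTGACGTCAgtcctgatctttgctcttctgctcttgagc

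In WT mice the tissues differed in which carrier was most abundant per exon length. Slc25a1, the citrate exporter, led in BAT with 604 ± 83.7 RPKM and in iWAT with 486 ± 256 RPKM (SD, n = 5 and 6). Slc25a5, the ADP/ATP carrier of proliferating and non-muscle tissues, came next at 326 ± 32.5 RPKM in BAT and 240 ± 50.6 RPKM in iWAT. The spreads of these neighbours in the order did not overlap in BAT, where Slc25a1 stood at 511 RPKM or more and Slc25a5 at 357 RPKM or less, but did in iWAT, where Slc25a1 reached down to 205 RPKM. Muscle was led by Slc25a4, its heart and muscle ADP/ATP carrier, at 1360 ± 65.1 RPKM, ahead of the phosphate carrier Slc25a3 at 138 ± 4.95 RPKM and the oxoglutarate carrier Slc25a11 at 115 ± 5.41 RPKM. Slc25a4 also led in hypothalamus at 222 ± 3.82 RPKM, followed by Slc25a5 at 115 ± 2.29 RPKM. Slc25a3 and Slc25a23, next in hypothalamus at 63.4 ± 0.866 and 62.8 ± 2.62 RPKM, did not differ beyond their spread. The glutamate carrier Slc25a18 stood at 51.6 ± 1.41 RPKM in hypothalamus and at 0.172 RPKM or less in every WT library of the other tissues. At least 1 CPM on average in WT was reached by 39 members of BAT, 40 of iWAT, 38 of muscle and 40 of hypothalamus. Slc25a54 had too few counts to be tested anywhere, and 40 members were tested in all tissues.

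**Figure D1:**
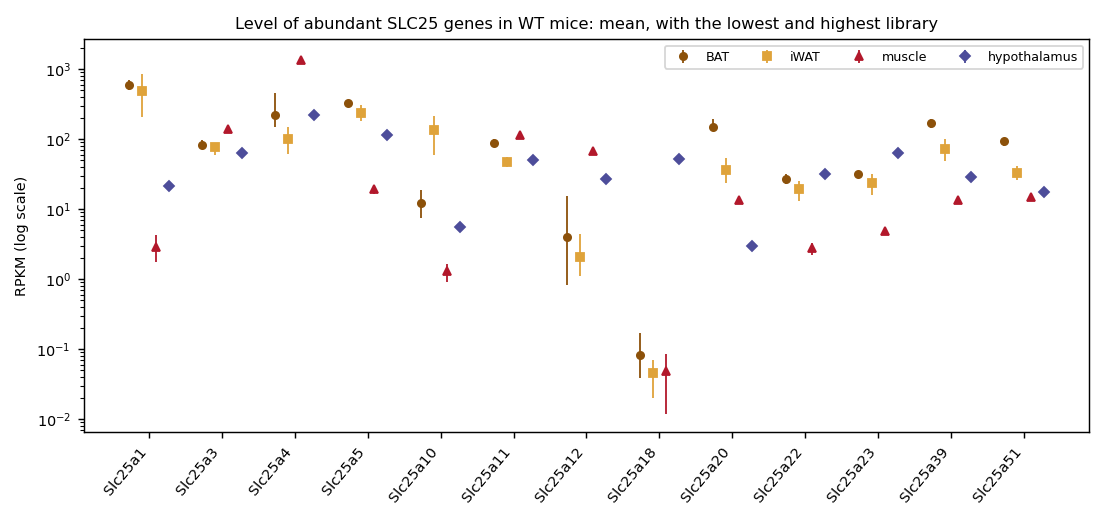
RPKM on a log scale for abundant members in WT mice, taken from the 8 highest of each tissue, as the mean (marker) with the lowest and highest library (bar). Slc25a4 stands at 1360 RPKM in muscle and Slc25a1 at 604 RPKM in BAT.

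In brown fat, loss of UCP1 moved SLC25 genes in both directions. Members called higher in UCP1 KO than in WT numbered 16 and members called lower 13 of 44 tested, or 65.9%, where 60.1% of all genes tested in BAT were called (30.2% higher and 29.9% lower). The median log2 fold change was 0.02 over the members and −0.02 over all genes. Genes of iron and glutathione carriers rose as a group (4 of 4), citrate, folate and branched-chain amino acid carriers fell, and the phosphate and carnitine carriers were not called. The carnitine carrier was called higher in dKO against FGF21 KO. The family took 0.737% ± 0.034 of total counts in UCP1 KO, 0.736% ± 0.0237 in dKO and 0.598% ± 0.0047 in WT (SD, n = 6, 6 and 5). These shares leave out the composition factors, so they are not on the scale of the CPM and calls, and show no rise on that scale. The split of these calls depended on the scaling: with total counts as the only library size, which raised the median of all genes to 0.413, the calls were 26 higher and 7 lower. All 16 higher calls were among those 26, and the 7 lower calls included Slc25a1, Slc25a23, Slc25a32, Slc25a35, Slc25a44 and Slc25a48, while Slc25a16, the carrier once linked to coenzyme A import, was called higher there (0.14) and lower with composition factors (−0.29).

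Among nucleotide and phosphate carriers in BAT, 2 rose and 1 fell of 7 tested, where 30.2% of all genes were called higher and 29.9% lower. Slc25a24, a calcium-regulated ATP-Mg/phosphate carrier (chromosome 3, 109123149 to 109168457, plus strand, GENCODE vM21 on GRCm38), had 11.4, 14.6 and 25.6 CPM as lowest, median and highest of 6 UCP1 KO libraries, against 6.30, 4.86, 5.29, 5.34 and 4.78 CPM in WT. All UCP1 KO libraries stood above all WT libraries, with replicate 5 of UCP1 KO far above the others of its group. The log2 fold change was 1.56 ± 0.17 (SE, adjusted p = 4.75e-08). Its relative Slc25a23 went the other way, with 76.1, 79.1 and 81.7 CPM as lowest, median and highest in UCP1 KO and 173, 179, 183, 163 and 152 CPM in WT. These groups did not overlap, and the log2 fold change was −1.11 ± 0.05 (adjusted p = 5.97e-13). The third relative, Slc25a25, had 8.53, 12.5 and 15.7 CPM in UCP1 KO against 8.55, 14.1, 8.13, 9.76 and 6.80 CPM in WT, with overlapping groups and no call (0.36 ± 0.20, adjusted p = 0.116). Of these 3 relatives, then, 1 rose, 1 fell and 1 was not called in the same BAT libraries.

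The ADP/ATP carrier Slc25a5 had 649, 704 and 766 CPM as lowest, median and highest in UCP1 KO BAT against 588, 493, 550, 581 and 467 CPM in WT. All UCP1 KO values lay above all WT values (0.40 ± 0.06, adjusted p = 5.22e-06). Slc25a4, which exports ATP in muscle and heart, had 349, 417 and 648 CPM in UCP1 KO and 346, 426, 369, 363 and 1092 CPM in WT. The groups overlapped and it was not called (−0.23 ± 0.27, adjusted p = 0.48). The WT library at 1092 CPM was 1 of the 7 BAT libraries high in muscle markers, and without those libraries the log2 fold change was 0.13. The 14 muscle markers summed to 111 to 8735 CPM in UCP1 KO BAT and 538 to 33100 CPM in WT BAT. Slc25a3, which imports phosphate for ATP synthesis, had 422, 436 and 489 CPM in UCP1 KO and 431, 407, 428, 463 and 535 CPM in WT, overlapping groups and no call (−0.02 ± 0.06, adjusted p = 0.77). Under total-count scaling Slc25a3 stood at 0.42 and Slc25a4 at 0.21.

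Of 6 carboxylate, carnitine and shuttle carriers tested in BAT, 1 rose and 1 fell, where 30.2% of all genes were called higher and 29.9% lower. Slc25a1 (chromosome 16, 17925223 to 17928219, minus strand), the carrier that exports citrate for lipid synthesis, had 121, 356 and 581 CPM as lowest, median and highest in UCP1 KO and 1393, 1136, 1373, 1530 and 1105 CPM in WT. UCP1 KO libraries spread widely, but all stood below every WT library. The log2 fold change was −1.92 ± 0.38 (adjusted p = 0.000231). Acly, the cytosolic enzyme that splits exported citrate, fell in the same comparison (−2.80 ± 0.40), whereas Cs, the matrix enzyme that makes citrate, rose (0.33 ± 0.06). Slc25a20, the carnitine-acylcarnitine carrier, had 682, 776 and 880 CPM in UCP1 KO and 928, 710, 661, 737 and 636 CPM in WT, and was not called (0.06 ± 0.08, adjusted p = 0.51). In dKO against FGF21 KO it was called higher, with 782 to 928 CPM in dKO and 737 to 781 CPM in FGF21 KO, just without overlap. The 1 call upward in UCP1 KO against WT was Slc25a13, an aspartate/glutamate carrier present at low level, with 0.721 to 1.14 CPM in UCP1 KO and 0.354 to 0.838 CPM in WT (0.62 ± 0.26, adjusted p = 0.0453). Its groups overlapped, and it was not called higher in dKO against FGF21 KO. Slc25a10, Slc25a11 and Slc25a12, for dicarboxylates, oxoglutarate and aspartate, were not called, and Slc25a21 had too few counts.

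Amino acid carriers of BAT gave 4 lower calls and 1 higher of 7 tested, where 29.9% of all genes were called lower. Under total-count scaling Slc25a44 alone of the 4 was called lower. Slc25a44, which imports branched-chain amino acids, had 78.4, 100 and 112 CPM as lowest, median and highest in UCP1 KO against 206, 195, 187, 185 and 159 CPM in WT. No UCP1 KO library reached a WT value (−0.93 ± 0.09, adjusted p = 1.27e-08). Beside it, Bckdha of the branched-chain keto acid dehydrogenase fell (−0.88 ± 0.08), the second subunit gene Bckdhb rose (0.77 ± 0.08), the kinase Bckdk fell (−0.33 ± 0.06), and Bcat2, the mitochondrial branched-chain transaminase, was not called (0.09 ± 0.12). The glutamate carrier Slc25a22 rose, with 202, 235 and 409 CPM in UCP1 KO and 167, 188, 164, 153 and 135 CPM in WT (0.69 ± 0.14, adjusted p = 0.000251). Its groups did not overlap, and replicate 5 of UCP1 KO, which also led for Slc25a24, stood far above the rest. The ornithine carrier Slc25a15 fell by 0.54 on the log2 scale and the glycine carrier Slc25a38, needed for haem synthesis, fell by 0.56, both with SE of 0.10 or less and without overlap with WT. Slc25a2, an ornithine carrier at 0.343 CPM or less in these groups, was also called lower, and Slc25a29 and Slc25a18 were not called.

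Cofactor and nucleotide carriers of BAT split evenly, with 3 higher and 3 lower of 9 tested, where 30.2% of all genes were called higher and 29.9% lower. Slc25a33, a pyrimidine nucleotide carrier (chromosome 4, 149744036 to 149774277, minus strand), had 82.2, 88.0 and 98.4 CPM as lowest, median and highest in UCP1 KO and 46.2, 46.6, 39.9, 38.6 and 30.7 CPM in WT. The groups stood well apart (1.15 ± 0.09, adjusted p = 6.28e-10). Slc25a42, which imports coenzyme A, and Slc25a17, a peroxisomal carrier of coenzyme A and related cofactors, also rose (0.45 ± 0.11 and 0.60 ± 0.10). Slc25a32, required for mitochondrial folate and flavin supply, fell, with 17.3, 19.0 and 21.2 CPM in UCP1 KO and 49.6, 45.1, 38.7, 41.6 and 37.9 CPM in WT (−1.16 ± 0.09, adjusted p = 2.65e-10). Its groups did not overlap. Beside the fall of Slc25a32, the mitochondrial folate enzymes Mthfd2, Mthfd1l and Shmt2 rose (4.20 ± 0.22, 3.55 ± 0.24 and 0.69 ± 0.07). Slc25a16 fell, and Slc25a26, Slc25a36 and Slc25a51, for S-adenosylmethionine, pyrimidine nucleotides and NAD, were not called.

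All 4 iron and glutathione carriers rose in UCP1 KO BAT, where 30.2% of all genes were called higher. Slc25a37 (mitoferrin 1), an iron importer, had 29.1, 31.5 and 36.7 CPM as lowest, median and highest in UCP1 KO against 18.5, 17.9, 16.4, 17.4 and 18.0 CPM in WT (0.85 ± 0.06, adjusted p = 1.42e-10). The second iron importer Slc25a28 (mitoferrin 2) ranged from 52.7 to 74.8 CPM in UCP1 KO and from 34.4 to 41.7 CPM in WT (0.63 ± 0.07). The glutathione importer Slc25a39 ranged from 669 to 852 CPM in UCP1 KO and from 392 to 533 CPM in WT (0.64 ± 0.09), and its relative Slc25a40 from 11.4 to 14.5 CPM and from 8.75 to 9.66 CPM (0.48 ± 0.08). None of the 4 overlapped with WT, and the share of all genes without overlap was not counted. In the haem pathway that uses mitochondrial iron, Alas1 rose (1.59 ± 0.10), and Fech, which inserts the iron, fell (−0.32 ± 0.06). Of the uncoupling protein relatives, Slc25a30 was called higher (0.34 ± 0.09) and Slc25a14 and Slc25a27 were not called.

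Members with other or unassigned cargo gave 4 higher and 4 lower calls of 8 tested in BAT, where 30.2% of all genes were called higher and 29.9% lower. The largest fall of the family was that of Slc25a48 (chromosome 13, 56438355 to 56474239, plus strand), a carrier linked to mitochondrial choline import. It had 2.47, 3.78 and 4.79 CPM as lowest, median and highest in UCP1 KO and 23.5, 16.0, 19.7, 23.5 and 17.0 CPM in WT. The groups were far apart (−2.45 ± 0.19, adjusted p = 7.91e-10). Slc25a34 (chromosome 4, 141618824 to 141623821, minus strand), whose cargo is not settled, rose, with 148, 168 and 193 CPM in UCP1 KO and 107, 106, 64.1, 76.3 and 73.6 CPM in WT (0.97 ± 0.13, adjusted p = 1.01e-06). Slc25a45 also rose without overlap, with 9.71, 11.1 and 11.4 CPM in UCP1 KO and 5.81, 5.29, 5.97, 5.64 and 4.95 CPM in WT (0.96 ± 0.08, adjusted p = 9.64e-10). Slc25a46, an outer membrane protein of mitochondrial dynamics, rose by less (0.24 ± 0.05), and Slc25a43, at 0.432 CPM or less in these libraries, was called higher. Slc25a35, Slc25a47 and Slc25a53 were called lower (−0.77 ± 0.09, −0.65 ± 0.18 and −0.45 ± 0.13). Slc25a47 and Slc25a53 overlapped with WT and Slc25a35 did not, and Slc25a47 was not called lower in dKO against FGF21 KO.

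Macrophage genes moved with genotype in BAT: the summed level of 9 of 10 measured markers was 446 to 619 CPM in UCP1 KO and 273 to 411 CPM in dKO, against 94.9 to 139 CPM in WT, and no marker was at 0. Lymphocyte markers, all 15 measured and none at 0, summed to 14.5 to 21.0 CPM in UCP1 KO and 11.2 to 18.8 CPM in dKO, against 6.21 to 13.3 CPM in WT, without overlap for UCP1 KO. The 9 adipocyte markers, none at 0, summed to 7801 to 12040 CPM in UCP1 KO and 9778 to 13920 CPM in WT. Their mean log2 score was 8.02 to 8.83 in UCP1 KO and 8.92 to 9.53 in WT, lower without overlap. The 5 endothelial markers, none at 0, summed to 674 to 787 CPM in UCP1 KO and 763 to 991 CPM in WT. The part of these cell types in the changes of Slc25a24, Slc25a37 and the other members was not tested.

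**Figure D2:**
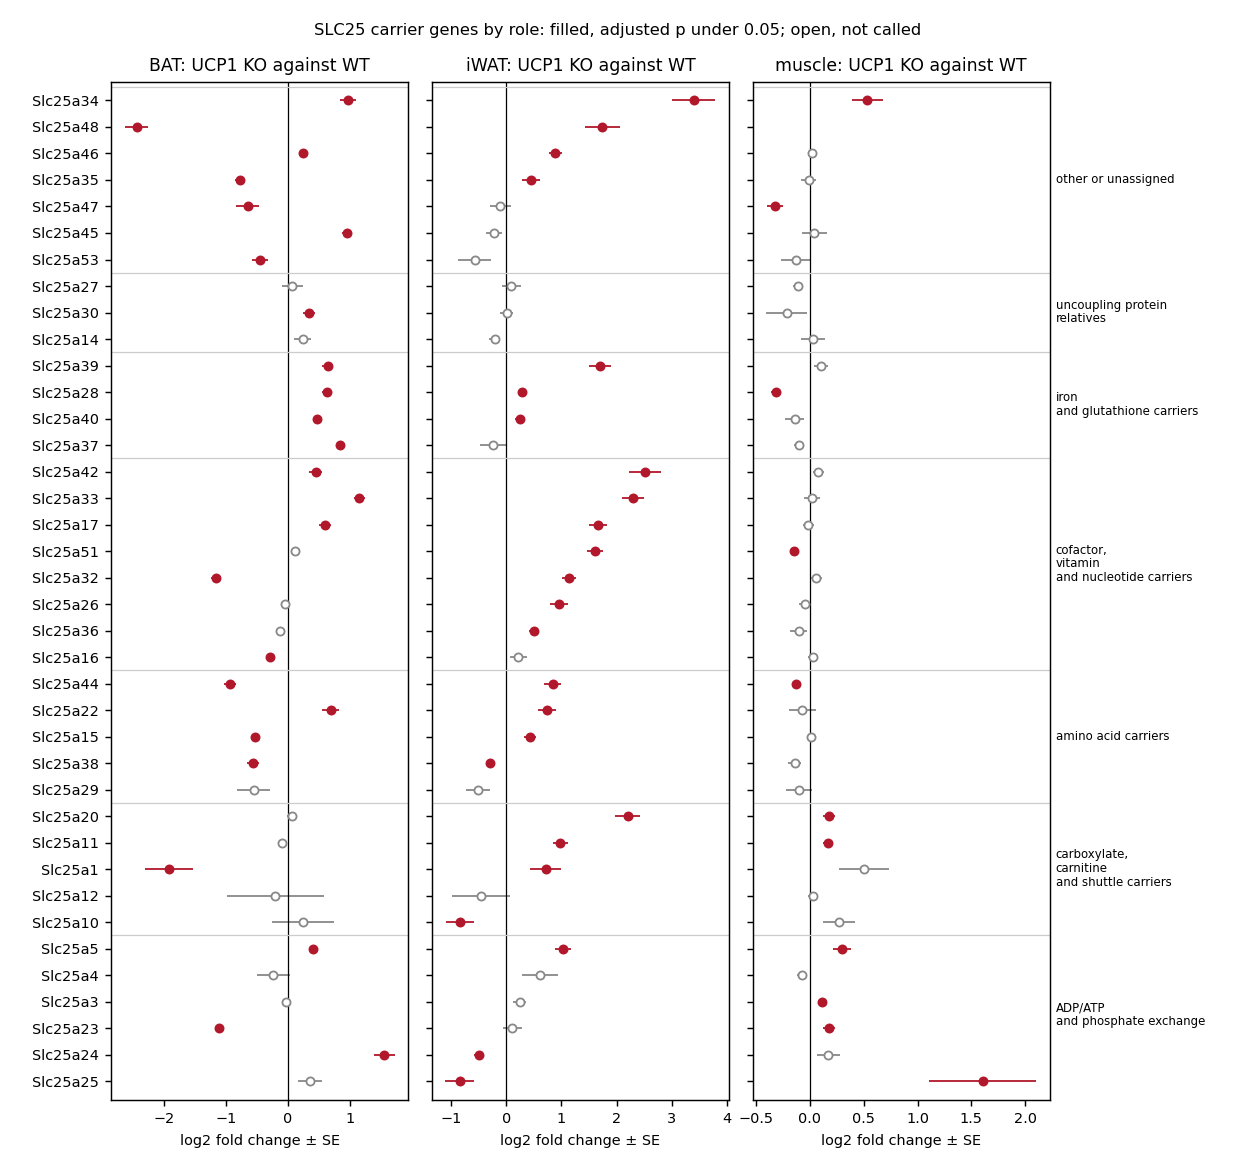
Log2 fold change (UCP1 KO against WT) with its SE for members reported here with at least 1 CPM in both fat depots, in BAT, iWAT and muscle, grouped by role. Filled points were called and open points were not; Slc25a34 reaches 3.40 in iWAT and Slc25a48 falls to −2.45 in BAT.

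In inguinal fat the same genotype mostly raised the family. UCP1 KO against WT gave 23 members higher and 5 lower of 43 tested, or 65.1%, where 46.3% of all genes tested in iWAT were called (22.3% higher and 24% lower). The median log2 fold change was 0.45 over the members and −0.13 over all genes. Cofactor carriers rose in 8 of 9 cases, carboxylate and carnitine carriers in 4 of 7, and amino acid carriers in 3 of 6. The family took 0.692% ± 0.0474 of total counts in UCP1 KO, 0.664% ± 0.0454 in dKO and 0.490% ± 0.0679 in WT (SD, n = 6 each), again without composition factors. With total counts as the only library size, which lowered the median of all genes to −0.533, the calls were 16 higher and 14 lower. All 16 were among the 23, and Slc25a1, Slc25a15, Slc25a21, Slc25a28, Slc25a35, Slc25a36 and Slc25a40 were lost from the higher calls.

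Of 7 carboxylate, carnitine and shuttle carriers tested in iWAT, 4 rose and 1 fell, where 22.3% of all genes were called higher and 24% lower. Slc25a20, the carnitine-acylcarnitine carrier, had 586, 822 and 966 CPM as lowest, median and highest in UCP1 KO and 114, 169 and 258 CPM in WT. The groups stood far apart (log2 fold change 2.20 ± 0.22, adjusted p = 1.70e-07). Cpt1b and Cpt2, the carnitine palmitoyltransferases on either side of that carrier, and the acetyltransferase Crat rose as well, by 1.48 to 3.18, and Cpt1a was not called (0.21 ± 0.16). Slc25a1 had 1129, 1519 and 2744 CPM in UCP1 KO and 444, 926 and 1865 CPM in WT. Its groups overlapped, and its call (0.71 ± 0.28, adjusted p = 0.0416) was lost in 5 other settings at 0.35 to 0.74 (adjusted p up to 0.37), and without any 1 of WT replicates 1 to 4 or UCP1 KO replicates 3, 4 and 6. Slc25a10, the dicarboxylate carrier, fell, with 214, 242 and 345 CPM in UCP1 KO and 208, 490 and 752 CPM in WT (−0.84 ± 0.25, adjusted p = 0.0106), where WT replicate 3 lay inside the UCP1 KO range and WT replicate 1 below it. Slc25a11 of the malate-aspartate shuttle rose (0.98 ± 0.14), as did Got1, Got2, Mdh1 and Mdh2 of the same shuttle, by 0.83 to 3.70. Slc25a21 was called higher at 0.557 CPM or less, and Slc25a12 and Slc25a13 were not called.

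Of 6 nucleotide and phosphate carriers tested in iWAT, 1 rose and 2 fell, where 22.3% of all genes were called higher and 24% lower. Slc25a5 had 627, 835 and 933 CPM as lowest, median and highest in UCP1 KO and 302, 383 and 509 CPM in WT, with no overlap (1.03 ± 0.15, adjusted p = 1.48e-05). Slc25a4 had 341, 358 and 410 CPM in UCP1 KO against 145, 245 and 348 CPM in WT, where 1 WT library reached into the UCP1 KO range, and was not called (0.61 ± 0.33, adjusted p = 0.136). Without the libraries high in muscle markers it was called, at 0.76 (adjusted p = 0.00442). Slc25a3 had 439, 515 and 559 CPM in UCP1 KO and 329, 444 and 488 CPM in WT and was not called (0.24 ± 0.11, adjusted p = 0.0812). It was called higher by DESeq2 (0.29) and called lower under total-count scaling (−0.15). Slc25a24 fell, with 7.52, 9.83 and 11.3 CPM in UCP1 KO and 11.6, 13.6 and 14.9 CPM in WT and no overlap (−0.50 ± 0.10, adjusted p = 0.000264). Slc25a25 fell too, with 17.6, 24.5 and 32.1 CPM in UCP1 KO and 21.5, 33.6 and 91.6 CPM in WT, but these groups overlapped (−0.85 ± 0.26, adjusted p = 0.0112). Slc25a23 was not called (0.11 ± 0.17).

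Amino acid carriers of iWAT were called higher in 3 cases and lower in 1, where 22.3% of all genes were called higher and 24% lower. Slc25a44 had 132, 161 and 202 CPM as lowest, median and highest in UCP1 KO and 65.9, 89.4 and 125 CPM in WT, without overlap (0.84 ± 0.15, adjusted p = 0.000113). Bckdha, Bckdhb and Bckdk of the branched-chain dehydrogenase rose with it (0.73 to 0.96), and Bcat2 was not called (−0.28 ± 0.28). Slc25a22 (0.74 ± 0.16) and Slc25a15 (0.43 ± 0.12) were also higher. Slc25a38 had 11.6, 12.3 and 14.7 CPM in UCP1 KO and 13.9, 14.8 and 18.5 CPM in WT, overlapping groups with a small fall (−0.29 ± 0.08, adjusted p = 0.00482). That call was lost without the libraries high in lymphocyte markers (−0.21, adjusted p = 0.122).

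Cofactor carriers rose in 8 of 9 cases in iWAT, and 3 of 4 iron and glutathione carriers did, where 22.3% of all genes were called higher. Slc25a42, the coenzyme A importer, had 185, 290 and 381 CPM as lowest, median and highest in UCP1 KO and 33.6, 43.2 and 79.4 CPM in WT (2.52 ± 0.29, adjusted p = 6.69e-07). Pank1 and Coasy, which make coenzyme A, rose with it (2.39 ± 0.29 and 1.30 ± 0.18), while Pank2 and Pank3 fell (−0.18 ± 0.05 and −0.51 ± 0.15). Slc25a33 had 35.6, 55.5 and 66.8 CPM in UCP1 KO and 7.84, 11.3 and 13.9 CPM in WT (2.30 ± 0.20, adjusted p = 5.27e-08). For both genes the lowest UCP1 KO library stood above the highest WT library. Slc25a17, Slc25a26, Slc25a32, Slc25a36 and Slc25a51 also rose without overlap, by 0.50 to 1.67, and Slc25a16 was not called. Slc25a39 had 480, 681 and 737 CPM in UCP1 KO and 135, 191 and 275 CPM in WT, without overlap (1.70 ± 0.20, adjusted p = 1.15e-06). Slc25a28 and Slc25a40 were called higher by less (0.28 ± 0.07 and 0.25 ± 0.08), both with overlap with WT, and Slc25a37 was not called. In dKO against WT, 1 of these 4 iron and glutathione carriers was called higher in iWAT.

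The widest change of the family was that of Slc25a34 in iWAT. It had 71.8, 107 and 159 CPM as lowest, median and highest in UCP1 KO and 4.39, 11.2 and 15.9 CPM in WT (3.40 ± 0.40, adjusted p = 1.11e-06). Every UCP1 KO library exceeded every WT library by a wide margin. Slc25a48 had 4.89, 6.81 and 10.9 CPM in UCP1 KO and 0.986, 1.81 and 4.14 CPM in WT, without overlap (1.74 ± 0.32, adjusted p = 0.00015). Slc25a46 (0.89 ± 0.12) and Slc25a35 (0.45 ± 0.16) were higher, Slc25a43 was lower at 0.478 CPM or less, and Slc25a45, Slc25a47, Slc25a53 and the 3 uncoupling protein relatives were not called. Brown adipocyte markers moved with genotype in iWAT: the 7 genes, Ucp1 among them, summed to 3900 to 6767 CPM in UCP1 KO and 293 to 1918 CPM in WT, none at 0. The 15 lymphocyte markers summed to 13.6 to 817 CPM in UCP1 KO and 10.0 to 1616 CPM in WT. The part of either in these changes was not tested, but without the libraries high in lymphocyte markers the lower calls numbered 3.

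**Figure D3:**
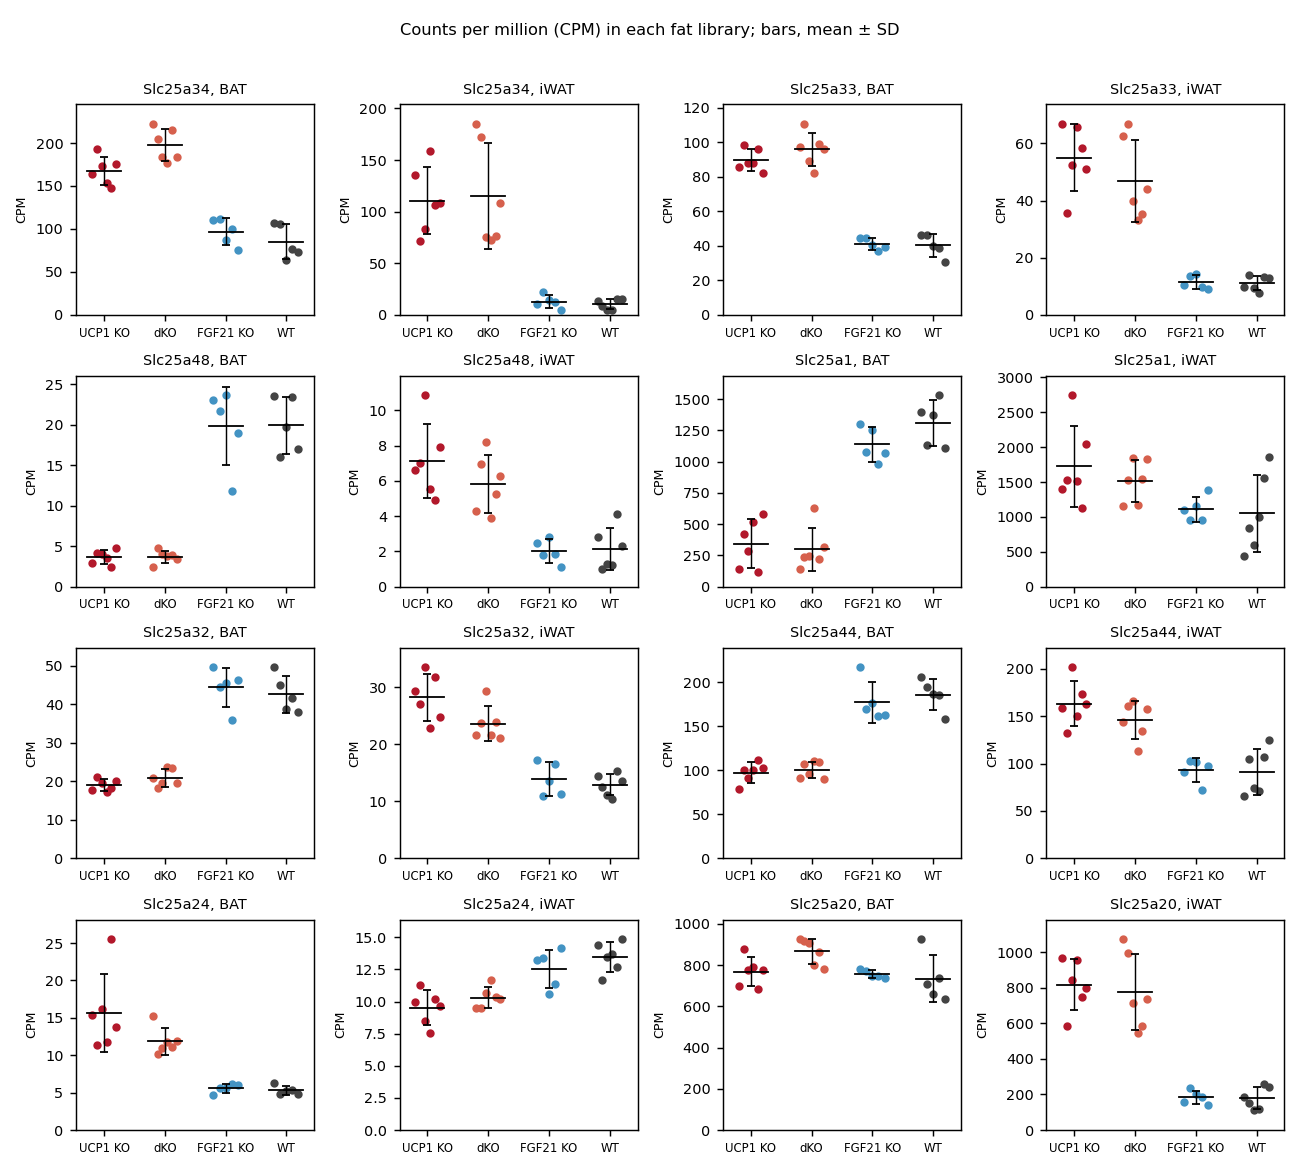
CPM of 8 members in each BAT and iWAT library by genotype, with the mean and SD as bars. Slc25a48, Slc25a1, Slc25a32 and Slc25a44 average lower in UCP1 KO and dKO than in WT in BAT and higher in iWAT, where Slc25a1 overlaps with WT in both genotypes and Slc25a44 and Slc25a48 do in dKO, while Slc25a34 and Slc25a33 stand higher in both.

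The 2 fat depots were then compared directly, by testing for each member whether the UCP1 KO effect in BAT differed from that in iWAT. Of the 47 members, 2 had too few counts to be tested. The difference was called for 33, with the BAT effect below the iWAT effect for 25 and above it for 8, where 52.6% of all genes tested were called (27.7% below and 25% above). The fit treats libraries as independent, since shared mice are not marked in the labels. Slc25a48 differed most among members over 1 CPM, by −4.24 ± 0.39 (adjusted p = 2.05e-11). Slc25a1 differed by −2.70 ± 0.47, Slc25a32 by −2.35 ± 0.16 and Slc25a44 by −1.84 ± 0.18. Slc25a24 differed most in the other direction among members over 1 CPM, by 2.00 ± 0.19 (adjusted p = 2.94e-11), followed by Slc25a25 and Slc25a45 (1.14 ± 0.34 and 1.13 ± 0.18). Slc25a22 was called higher in both depots, and its difference of −0.11 ± 0.22 was not called (adjusted p = 0.703).

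In the separate fits 30.2% of all genes were called higher and 29.9% lower in BAT, and 22.3% and 24% in iWAT. The share of all genes with each pair of calls was not counted. Sorted by calls in these fits, 10 members were higher in both depots: Slc25a5, Slc25a17, Slc25a22, Slc25a28, Slc25a33, Slc25a34, Slc25a39, Slc25a40, Slc25a42 and Slc25a46. Another 7 were lower in BAT and higher in iWAT, among them Slc25a1, Slc25a15, Slc25a32, Slc25a35, Slc25a44 and Slc25a48. Slc25a24 and Slc25a43 were higher in BAT and lower in iWAT, and Slc25a38 was lower in both. The direction of these differences depended in part on the scaling. With total counts as the only library size, which moved the median BAT minus iWAT difference of all genes to 0.92, there were 17 calls with BAT above and 12 with BAT below iWAT. All 8 calls above and 12 of the 25 below were shared with the fit with composition factors, among them Slc25a1, Slc25a32, Slc25a44 and Slc25a48, while Slc25a3, Slc25a16 and Slc25a38 were called in the opposite direction.

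**Figure D4:**
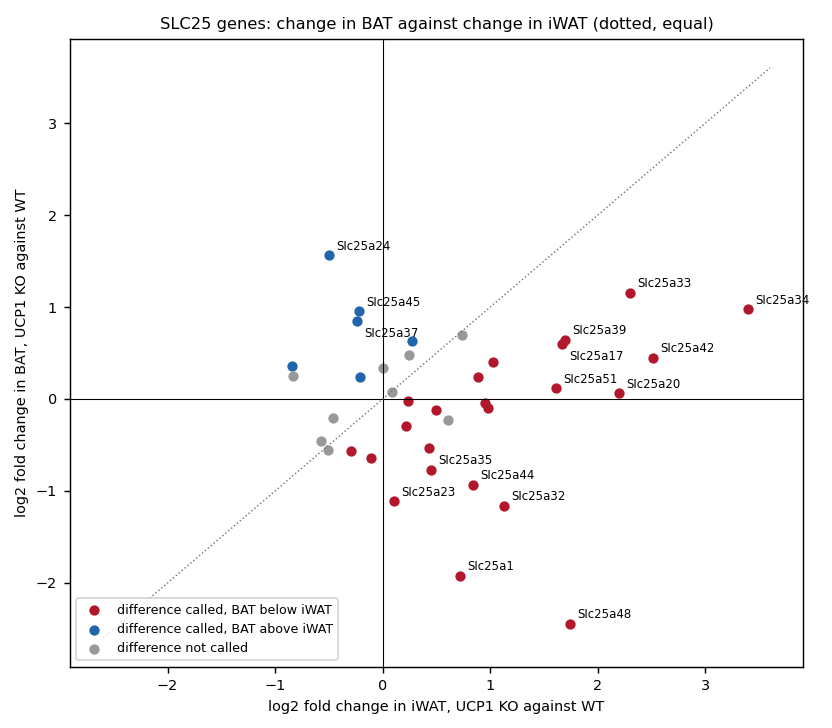
Log2 fold change in BAT (vertical) against that in iWAT (horizontal), UCP1 KO against WT, for members reported here with at least 1 CPM in both depots; color gives the call on the difference. Slc25a48, Slc25a1, Slc25a32 and Slc25a44 lie at the lower right, and Slc25a24 at the upper left.

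Muscle moved less. UCP1 KO against WT gave 7 members higher and 4 lower of 40 tested, or 27.5%, where 12.3% of all genes tested in muscle were called (5.89% higher and 6.42% lower). The higher calls numbered 1, Slc25a23, where UCP1 KO and WT were fitted alone. They were 3 or 4 without any 1 of WT replicates 3, 4 and 5 or UCP1 KO replicates 1 and 3. Of the 11, 1 changed by more than 2-fold. Slc25a25, an ATP-Mg/phosphate carrier regulated by calcium (chromosome 2, 32414487 to 32451445, minus strand), had 16.7, 71.7 and 109 CPM as lowest, median and highest in UCP1 KO and 9.01, 19.8 and 46.4 CPM in WT. Replicates 3, 4 and 6 of UCP1 KO stood at 96.3 CPM or more, and the other 3 lay within or just above the WT range. The log2 fold change was 1.60 ± 0.50 (adjusted p = 0.041), and the call was lost without any 1 of UCP1 KO replicates 3, 4 and 6 or WT replicates 1, 2, 4, 5 and 6 (adjusted p 0.0603 to 0.0893). It was also lost without the filter on low counts and where UCP1 KO and WT were fitted alone (adjusted p = 0.0627 and 0.0986). Slc25a34 had 11.5, 14.4 and 22.3 CPM in UCP1 KO and 8.09, 10.2 and 13.5 CPM in WT, with overlap (0.53 ± 0.15, adjusted p = 0.0204). Slc25a5 had 32.8, 37.3 and 49.9 CPM in UCP1 KO and 27.5, 32.1 and 35.3 CPM in WT, with overlap (0.30 ± 0.08, adjusted p = 0.0172). Slc25a5 and Slc25a34 were the members called higher in BAT, iWAT and muscle alike, but neither was called in muscle where UCP1 KO and WT were fitted alone. Slc25a3, Slc25a11, Slc25a20 and Slc25a23 were the other higher calls, all at 0.11 to 0.18.

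The falls in muscle were small and tight. Slc25a28, an iron importer, was called higher in both fat depots, with overlap in iWAT. In muscle it had 23.1, 25.2 and 27.7 CPM as lowest, median and highest in UCP1 KO and 29.4, 31.6 and 33.7 CPM in WT. The groups did not overlap (−0.32 ± 0.05, adjusted p = 0.000147). Slc25a47, a carrier best known in liver, had 3.28, 3.69 and 3.93 CPM in UCP1 KO and 3.95, 4.56 and 5.13 CPM in WT, just without overlap (−0.33 ± 0.08, adjusted p = 0.006). The NAD importer Slc25a51 had 69.2, 74.0 and 77.5 CPM in UCP1 KO and 77.4, 83.0 and 86.7 CPM in WT, with 1 UCP1 KO library just past the lowest WT library (−0.15 ± 0.04, adjusted p = 0.00641). Slc25a44 was the fourth (−0.13 ± 0.04). Slc25a4, the most abundant member in muscle, ranged from 2826 to 3277 CPM in UCP1 KO and from 3082 to 3487 CPM in WT and was not called (−0.07 ± 0.04, adjusted p = 0.306). Its share of the ADP/ATP carrier pair Slc25a4 plus Slc25a5, per exon length, was 98.2% ± 0.354 in UCP1 KO and 98.6% ± 0.187 in WT muscle (SD, n = 6 each).

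**Figure D5:**
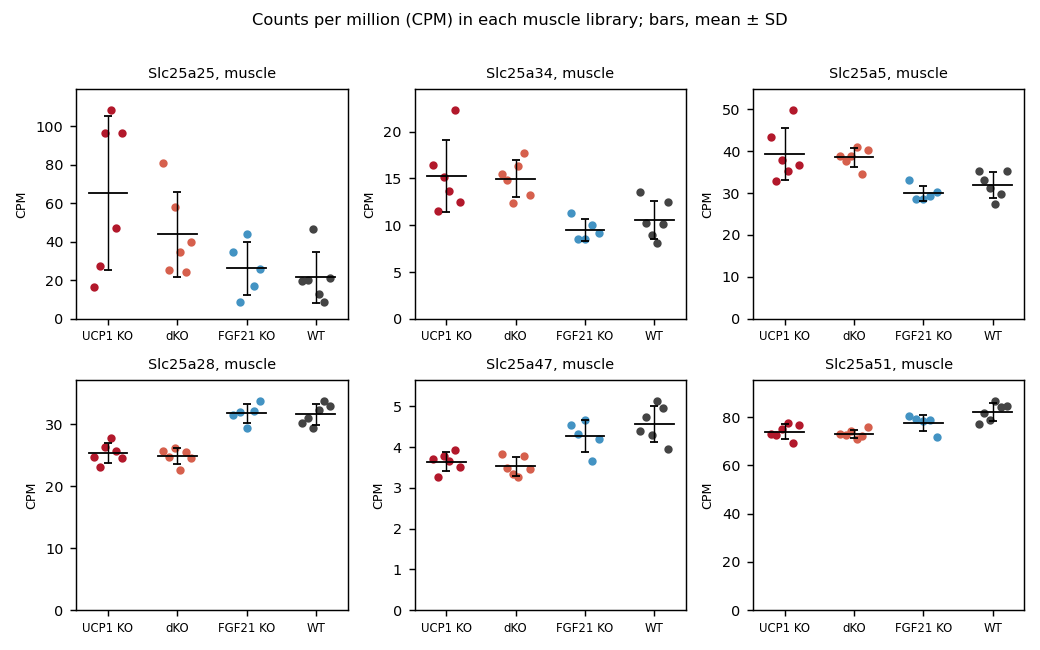
CPM of 6 called members in muscle, in each library by genotype, with the mean and SD as bars. Slc25a25 spreads from 16.7 to 109 CPM in UCP1 KO, and Slc25a28 stands lower in UCP1 KO and dKO than in WT without overlap.

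In hypothalamus no member was called for UCP1 KO against WT among 46 tested by edgeR, where 0.0555% of all genes were called (0.0166% higher and 0.0388% lower). At an unadjusted p under 0.05 there were 2, Slc25a33 and Slc25a48, and DESeq2 called 0. The median absolute log2 fold change over the members was 0.04, and the family took 0.313% ± 0.0038 of total counts in UCP1 KO and 0.308% ± 0.0026 in WT (SD, n = 6 each).

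Loss of FGF21 alone left no SLC25 gene called. FGF21 KO against WT gave 0 calls by edgeR in every tissue. In the order BAT, iWAT, muscle, hypothalamus, 0.025%, 0.00597%, 0.0198% and 0.00555% of all genes were called. Split by direction, 0.0187% of all genes were higher and 0.00624% lower in BAT, 0% and 0.00597% in iWAT, 0.00661% and 0.0132% for muscle, and 0% and 0.00555% for hypothalamus. Members at an unadjusted p under 0.05 numbered 2, 2, 1 and 2 in that tissue order, and DESeq2 called 1, Slc25a23 in BAT, and 0 elsewhere. Slc25a23 had 135, 146, 154, 142 and 140 CPM in FGF21 KO BAT and 173, 179, 183, 163 and 152 CPM in WT BAT, with 1 FGF21 KO library above the lowest WT library (−0.25 ± 0.06, adjusted p = 0.208). The median absolute log2 fold change of members was 0.07 in either fat depot, with 0.05 for muscle and 0.03 for hypothalamus.

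Loss of FGF21 on top of UCP1 was tested as dKO against UCP1 KO. A single member was called in BAT, where 1.73% of all genes were called (0.767% higher and 0.967% lower), and none in iWAT, muscle or hypothalamus, where 0.0358%, 0% and 0.0111% of all genes were. Unadjusted p-values under 0.05 numbered 7, 1, 1 and 1 in that order, and DESeq2 called the same gene in BAT and 0 members elsewhere. That gene was Slc25a46, with 164, 173 and 186 CPM as lowest, median and highest in dKO BAT and 141, 152 and 169 CPM in UCP1 KO BAT. The groups overlapped and the log2 fold change was 0.20 ± 0.05 (adjusted p = 0.047). The call was lost without any 1 of dKO replicates 1, 2, 3, 5 and 6 or UCP1 KO replicates 1, 3, 4, 5 and 6. Slc25a24 had 10.2, 11.4 and 15.3 CPM in dKO and 11.4, 14.6 and 25.6 CPM in UCP1 KO BAT, and was not called (−0.40 ± 0.15, adjusted p = 0.181). The interaction of the knockouts, whether the UCP1 effect differs without FGF21, was called for 0 members in any tissue by edgeR and by DESeq2, where 0% of all genes were called, with 3, 2, 1 and 1 members at an unadjusted p under 0.05 in the tissue order above.

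The dKO mice were also set against WT, which shares its WT libraries with the UCP1 KO comparison. Of the members in BAT, 17 were higher and 13 lower, where 59.1% of all genes were called (29.7% higher and 29.3% lower). Those called in iWAT were 19 higher and 4 lower, where 37% of all genes were called (19% and 18%). Muscle had 7 higher and 3 lower, where 10.3% were called (4.85% and 5.46%). The higher calls in muscle numbered 3 without the low-count filter, and 1 to 4 without any 1 of WT replicates 2 to 5 or dKO replicates 1, 3, 4 and 6. Hypothalamus had none by edgeR, where 0.0555% were called (0.00555% and 0.0499%), with 1 member at an unadjusted p under 0.05 and 0 by DESeq2. Slc25a34 had 177, 194 and 223 CPM as lowest, median and highest in dKO BAT, and 72.8, 92.5 and 185 CPM in dKO iWAT. Its log2 fold changes against WT were 1.21 ± 0.13 in BAT and 3.46 ± 0.40 in iWAT, and no dKO library overlapped with WT in either depot. Slc25a48 had 2.48, 3.80 and 4.78 CPM in dKO BAT and 3.90, 5.76 and 8.22 CPM in dKO iWAT. It stood below all WT libraries in BAT (−2.43 ± 0.19), and in iWAT its lowest library lay just under the highest WT library (1.45 ± 0.32). Slc25a1 had 143, 240 and 627 CPM in dKO BAT, below all WT libraries (−2.13 ± 0.38), and 1153, 1537 and 1849 CPM in dKO iWAT, where it overlapped with WT and was not called (0.53 ± 0.28). Slc25a33 stood at 1.25 ± 0.09 in dKO BAT and 2.07 ± 0.20 in dKO iWAT. In muscle Slc25a25 was not called in dKO, with 24.3, 37.3 and 81.2 CPM against 9.01, 19.8 and 46.4 CPM in WT (1.01 ± 0.50, adjusted p = 0.214). Under total-count scaling the dKO calls were 26 higher and 10 lower in BAT and 17 higher and 12 lower in iWAT, with the median of all genes at 0.347 and −0.453.

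UCP1 loss was also read as dKO against FGF21 KO, which shares no library with UCP1 KO against WT. In BAT 18 members were higher and 13 lower, where 57.2% of all genes were called (29.3% higher and 28% lower). Of these, 15 of 18 and 12 of 13 had the same call in UCP1 KO against WT, which is 83.3% and 92.3% of this list, and 93.8% and 92.3% of the other. Higher in BAT in dKO against FGF21 KO alone were Slc25a20, Slc25a26 and Slc25a51, and lower there alone was Slc25a29. Slc25a13 was higher and Slc25a47 lower in UCP1 KO against WT alone. In iWAT 19 were higher and 6 lower, where 37.3% were called (16.8% higher and 20.5% lower). All 19 higher calls were shared (100% of this list and 82.6% of the other), and 3 lower calls were, of 6 in this list and 5 in the other. Higher in iWAT in UCP1 KO against WT alone were Slc25a1, Slc25a28, Slc25a35 and Slc25a40. In muscle 6 were higher and 3 lower, where 7.76% were called (3.63% higher and 4.13% lower), with 5 of 6 and 2 of 3 shared, against 63.2% of higher and 68.1% of lower calls over all genes. Over all genes of BAT, 87.5% of higher and 89.0% of lower calls of dKO against FGF21 KO were shared. In iWAT those shares over all genes were 96.4% and 77.1%. Under total-count scaling this comparison gave 27 higher and 9 lower in BAT and 17 higher and 9 lower in iWAT, with the median of all genes at 0.37 and −0.413. Slc25a10 fell again in iWAT, averaging 254 ± 49.7 CPM in dKO and 515 ± 178 CPM in FGF21 KO (SD, n = 6 and 5, −1.02 ± 0.27), and Slc25a25 did not pass the test (−0.47 ± 0.27, adjusted p = 0.183). In hypothalamus 0 members were called by edgeR, where 0.0555% of all genes were (0.0166% higher and 0.0388% lower), with 1 at an unadjusted p under 0.05 and 0 by DESeq2.

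Other mitochondrial genes were counted beside the carriers in UCP1 KO against WT, where 60.1% of all genes were called in BAT, 46.3% in iWAT and 12.3% in muscle. Respiratory chain genes fell in BAT, 26 lower and 0 higher of 32, with Sdha at the smallest p, and rose in iWAT, 32 of 32. Their median log2 fold change was −0.29 in BAT and 1.30 in iWAT, against the SLC25 medians of 0.02 in BAT and 0.45 in iWAT. In dKO against WT, 17 of these 32 genes were lower and 2 higher in BAT (median −0.19), where 59.1% of all genes were called. All 32 were higher in iWAT in that comparison (median 1.21), where 37% of all genes were called. Of 26 other mitochondrial transporters, 6 were higher and 14 lower in BAT, led by Ucp2 (2.92 ± 0.13) and Abcb10 (−0.86 ± 0.05), and 16 were higher and 2 lower in iWAT, led by Letm1 (2.03 ± 0.18) and Sfxn2 (−0.69 ± 0.15). Their medians were −0.22 in BAT and 0.49 in iWAT. Enzymes that make or use the carriers' cargo were higher in 9 and lower in 15 of 29 tested in BAT, and higher in 22 and lower in 2 of 30 in iWAT, with medians of −0.15 and 0.82. Cpt1a had the smallest p of the 9 higher calls in BAT. In dKO against UCP1 KO in BAT, Cpt1a was the 1 partner enzyme called lower and Pank1 the 1 called higher, where 1.73% of all genes were called. In muscle 11 respiratory chain genes, 5 other transporters and 6 partner enzymes were higher, and 1 partner enzyme lower. These lists were not counted under total-count scaling, which raised the median of all genes in BAT and lowered it in iWAT. The direction of small median changes, such as those in BAT, therefore holds for composition factors only.

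Some counts carry an annotation limit. In GENCODE vM21, 8 members overlap another gene on the same strand, Slc25a3, Slc25a37, Slc25a39 and Slc25a51 among them. On the opposite strand 17 do, Slc25a23, Slc25a25 and Slc25a33 among those, and the strand setting of the counting is not stated. A pseudogene named Slc25a5-ps exists, so reads of Slc25a5 could be split. The member nearest to Ucp1 on chromosome 8 is Slc25a42 at 13.1 Mb, and the nearest to Fgf21 on chromosome 7 is Slc25a22 at 95.8 Mb. The part of position on the same chromosome as a knocked-out gene was not tested.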

How the data were processed

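Per the labels, poly(A) RNA was sequenced as stranded paired reads of 100 bp. The authors deposited raw counts per gene, 1 table a library. STAR, HTSeq and the mm10 build are named per the submitters' processing notes, and their versions and the strand setting are not stated. Each table had 32765 rows. Names occurring more than once (66) were summed, and 2 rows naming no gene (at most 0.22% of counts) were left out. No pair of libraries within a group agreed within sampling noise (210 pairs, chi-square per degree of freedom 3.63 or more).

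Counts were fitted per tissue with all 4 genotypes in edgeR 4.0.16 (TMM factors, filterByExpr, robust quasi-likelihood test, Benjamini-Hochberg adjustment over all genes tested; R 4.3.3). SE is the log2 fold change divided by the root of F. A joint fit of BAT and iWAT tested the depot difference. DESeq2 1.42.0 and other settings served as alternatives. The fit was also run on simulated counts with 200 genes changed, some up and some down. That cannot check the scaling in a tissue such as BAT, where 60.1% of all genes were called for UCP1 KO against WT. CPM use TMM-scaled library sizes, and RPKM divide them by GENCODE vM21 exon length. Tables were handled in Python 3.11.15 with pandas 2.3.3. Precision is limited by group size more than by depth for abundant members, while members near 0 CPM rest on few counts.

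Libraries were grouped by the labelled tissue and genotype. Shared mice and litters are not marked in the labels, so p-values measure the spread between these samples. Library values are given singly for groups of 5, and as lowest, median and highest for groups of 6. They cover up to 6 called members per direction in each fat depot by absolute log2 fold change (mean of at least 1 CPM), and up to 3 in other comparisons. In fat they also cover Slc25a1, Slc25a3, Slc25a4, Slc25a5, Slc25a20, Slc25a25 and Slc25a44. The members, gene lists and tests were chosen with earlier results of these data known. Partner enzymes, and values added for other members, were named after their values were seen. Results of some genes, counted in the totals, are not reported here.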

Additional observations from a re-analysis of the deposited data

Results flagged for a closer look

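The effect of UCP1 loss differed between the fat depots for 33 of the 47 members (2 not tested) by edgeR's test of the difference itself, where 52.6% of all genes did. Values are the log2 fold change of UCP1 KO against WT in BAT minus that in iWAT. The BAT effect lay below the iWAT effect for 25 members. Those furthest below included Slc25a48 (−4.24), Slc25a1 (−2.70), Slc25a34 (−2.48), Slc25a32 (−2.35), Slc25a20 (−2.20), Slc25a42 (−2.13), Slc25a2 (−1.86), Slc25a44 (−1.84), Slc25a51 (−1.55), Slc25a35 (−1.28), Slc25a23 (−1.28) and Slc25a33 (−1.21). Further members were Slc25a11 (−1.14), Slc25a17 (−1.13), Slc25a39 (−1.12), Slc25a26 (−1.06), Slc25a15 (−1.03), Slc25a46 (−0.71), Slc25a5 (−0.69), Slc25a36 (−0.68), Slc25a47 (−0.60), Slc25a16 (−0.57), Slc25a38 (−0.33) and Slc25a3 (−0.33). The BAT effect lay above the iWAT effect for 8 members: Slc25a43 (3.25), Slc25a24 (2.00), Slc25a13 (1.28), Slc25a25 (1.14), Slc25a45 (1.13), Slc25a37 (1.03), Slc25a14 (0.40) and Slc25a28 (0.30).

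In 13 of 156 sets of values examined (1 gene in 1 group of 5 or 6 libraries), 1 library stood far from the others of its group. For independent sets chance gives about 1 in 20, but sets of different genes reuse the same libraries, so the count cannot be set against that rate. In BAT, Slc25a1 had 627 CPM in dKO replicate 4 (others 143 to 315), Slc25a3 had 487 CPM in FGF21 KO replicate 4 (others 415 to 430), and Slc25a4 had 648 CPM in UCP1 KO replicate 1 (others 349 to 426) and 1092 CPM in WT replicate 5 (others 346 to 426). UCP1 KO replicate 5 had 409 CPM of Slc25a22 (others 202 to 259) and 25.6 CPM of Slc25a24 (others 11.4 to 16.2). Slc25a24 had 15.3 CPM in dKO replicate 1 (others 10.2 to 12.0). FGF21 KO replicate 1 had 218 CPM of Slc25a44 (others 161 to 176) and 123 CPM of Slc25a46, below its group (others 139 to 144). In iWAT, Slc25a4 had 975 CPM in FGF21 KO replicate 3 (others 160 to 284) and Slc25a10 had 351 CPM in dKO replicate 6 (others 207 to 246). In muscle, Slc25a25 had 46.4 CPM in WT replicate 3 (others 9.01 to 21.0), and Slc25a51 had 72.0 CPM in FGF21 KO replicate 5, below its group (others 78.2 to 80.5). For Slc25a3 and Slc25a4 those libraries (UCP1 KO 1, FGF21 KO 4 and WT 5 in BAT, FGF21 KO 3 in iWAT) were also high in muscle markers, as was FGF21 KO 1 of BAT, the library apart for Slc25a44 and Slc25a46, and the part of those markers was not tested.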

How the results depend on the processing

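Counts of members called were recomputed under each other setting, and 321 lay within 1.5 times the reported count while 19 did not. With total counts as library size (chosen after seeing the data), UCP1 KO against WT gave 26 higher and 7 lower in BAT and 14 lower in iWAT. With that scaling dKO against WT gave 26 higher in BAT and 12 lower in iWAT, and the depot difference gave 17 above and 12 below. DESeq2 gave 1 lower call for FGF21 KO in BAT. The single higher call of dKO against UCP1 KO in BAT became 0 without the low-count filter, with the compared groups alone, with total counts, and without libraries high in muscle genes. Without iWAT libraries high in lymphocyte genes, lower calls in iWAT were 3 for UCP1 KO, 2 for dKO and 2 for dKO against FGF21 KO, and the last was also 2 without libraries high in muscle genes. In muscle, the compared groups alone gave 1 higher call for UCP1 KO and 5 lower for dKO, and no filter gave 3 higher for dKO. The causes were not tested.

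With 1 library left out, counts ranged from 0 to 1 for dKO against UCP1 KO in BAT, 4 to 8 lower for UCP1 KO in iWAT (8 without UCP1 KO 2), and 3 to 6 lower for dKO against FGF21 KO in iWAT (3 without dKO 2). In muscle they ranged from 3 to 7 higher for UCP1 KO (4 or fewer without WT 3, 4 or 5, or UCP1 KO 1 or 3). They ranged from 1 to 7 higher for dKO there (4 or fewer without WT 2, 3, 4 or 5, or dKO 1, 3, 4 or 6), and from 1 to 3 lower for dKO against FGF21 KO (1 without FGF21 KO 3). In BAT, Slc25a4 was 0.21 with total counts and 0.13 without libraries high in muscle genes, with −0.37 to 0.23 over left-out libraries (0.23 without WT 5). Slc25a3 in BAT was 0.42 with total counts and −0.061 to 0.044 over left-out libraries (0.044 without WT 5), and in iWAT −0.15 with total counts. No paired analysis was possible because the labels carry no replicate numbers, and those used here follow listing order. Depth limits members under 1 CPM, such as Slc25a2, Slc25a13, Slc25a21 and Slc25a43.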
